A study of Mus musculus with 28 samples.

Results

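The T cell receptor complex and its proximal signalling proteins are followed here as a list of 36 named genes in leukocytes sorted from mouse tumours. Of these, 35 had a probe set that names the gene alone and were measured, among 17097 genes measured in all, and Lck is not analysed here. The list was set by gene name, but with earlier results of these data known. By role the measured genes are the 4 CD3 and zeta chains, 6 surface receptors, 3 tyrosine kinases, 9 adaptors and scaffolds, 5 downstream enzymes and scaffold proteins, 5 negative regulators and 3 transcription factors.

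The receptor's antigen-binding chains have no signalling part of their own and depend on the CD3 chains and the zeta chain, whose cytoplasmic tyrosine motifs are phosphorylated when antigen is bound. The phosphorylated motifs recruit the kinase ZAP-70, which phosphorylates the scaffolds LAT and SLP-76, and from these a phospholipase, a Ras activator and protein kinase C theta carry the signal to calcium, Ras and NF-kappaB. CD28 and ICOS add costimulation, and ubiquitin ligases, diacylglycerol kinases and phosphatases limit the signal. In a tumour these genes are known as marks of infiltrating T cells, though several of them are also used by NK, B or myeloid cells.

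The samples were CD45+ cells, that is cells carrying the common leukocyte surface protein, sorted from tumours and lysed without culture. The tumour lines were MC38, from a colon carcinoma, and B16.F10, from a melanoma. Control hosts were Foxp3Cre-YFP mice, in which Foxp3, the gene that defines regulatory T cells, drives a fusion of Cre recombinase with YFP. The other hosts were Nrp1L/LFoxp3Cre-YFP mice, which carry the same Cre and YFP and floxed alleles of Nrp1, the gene of the co-receptor neuropilin-1, so that deletion is directed to cells that express Foxp3. They are called Nrp1-deleted below. Mouse strain, age and the number of mice behind each sample are not given in the sources used here. Sampling was at days 6, 12 and 18 for MC38 and at an early day, day 12 and day 18 for B16, and both host genotypes together make 12 groups and 28 arrays. There are 3 arrays per group for B16 day 18 and MC38 day 12 (4 groups) and 2 per group elsewhere (8 groups). For the early B16 arrays the titles say day 8 and the source names day 6. Whether replicate arrays come from different mice is not stated in the labels, and the p-values therefore rest on a spread between arrays that may be technical.

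The deposited log2 values fell into 3 sets by their overall distribution, with mean log2 values of 4.62 to 4.64 in the 12 arrays of B16 day 18 and MC38 day 12, 4.82 to 4.84 in the 8 arrays of MC38 days 6 and 18, and 4.95 to 4.97 in the 8 arrays of early and day 12 B16. Genotypes were always compared inside a set, and so were MC38 day 18 with day 6 and B16 day 12 with early. Levels are not compared across sets, but the ranges of summed marker levels given below pool the sets of a tumour. Nrp1 itself was lower in Nrp1-deleted hosts by 0.84 ± 0.09 (log2 difference ± SE, adjusted p = 1.6e-07). Every Nrp1-deleted array lay below every control array in 6 of 6 combinations of tumour and day, as for 0.743% of all genes. The fall was 1.13 ± 0.12 in B16 and 0.54 ± 0.12 in MC38. It passed on each B16 day and on no single MC38 day (adjusted p 0.10 to 0.31). Ptprc, which encodes CD45, measured 11.5 to 12.9 on all arrays and was higher in Nrp1-deleted hosts by 0.25 ± 0.03 (adjusted p = 5.1e-06). The probe set of Foxp3 lay between 2.65 and 3.44, below the median of all values, 3.64, on every array. The number of arrays, and not a read depth, limits the precision of these values.

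The 250 bases before the start site of the receptor chain genes are printed first, since these genes moved together between host genotypes, followed by Prkcq, among the largest rises of the list, and Plcg1, taken by the rule for the lowest difference. The probe set of Plcg1 lay below the median of all values on every array, so its place in that order carries no information. Cd28 had the largest rise and has no entry in the promoter table used. The receptor chains were added after their values were seen. Sequences are from RefSeq, build GRCm38.p6, 5′ to 3′ on the gene's strand, and 27 of the 36 listed genes have an entry. Capitals mark matches on either strand. The motifs searched were the ETS core AGGAAG, the letters of the RUNX family core TGTGGT, the letters of the GATA family site AGATAA, the E-box sequence known as CAGCTG, and the core of a TATA box, given here as TATAAA. The Cd3g window is chr9:44980432-44980681 on the minus strand and the Cd3d window chr9:44981536-44981785 on the plus strand. The start sites of Cd3g and Cd3d lie 1355 bases apart and are read in opposite directions. The Cd3e window is chr9:45009612-45009861 (minus), and the Cd247 window chr1:165788431-165788680 (plus). Those of Prkcq and Plcg1 are chr2:11172132-11172381 and chr2:160731060-160731309, both on the plus strand.
Cd3g: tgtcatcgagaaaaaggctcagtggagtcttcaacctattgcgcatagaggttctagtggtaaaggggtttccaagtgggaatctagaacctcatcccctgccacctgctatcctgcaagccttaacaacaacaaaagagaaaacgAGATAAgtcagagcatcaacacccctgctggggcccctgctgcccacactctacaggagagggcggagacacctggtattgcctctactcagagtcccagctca
Cd3d: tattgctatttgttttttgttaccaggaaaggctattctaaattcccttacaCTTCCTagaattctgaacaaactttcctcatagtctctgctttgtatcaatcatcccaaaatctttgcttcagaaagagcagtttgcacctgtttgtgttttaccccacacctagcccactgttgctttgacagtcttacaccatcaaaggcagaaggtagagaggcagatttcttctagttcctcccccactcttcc
Cd3e: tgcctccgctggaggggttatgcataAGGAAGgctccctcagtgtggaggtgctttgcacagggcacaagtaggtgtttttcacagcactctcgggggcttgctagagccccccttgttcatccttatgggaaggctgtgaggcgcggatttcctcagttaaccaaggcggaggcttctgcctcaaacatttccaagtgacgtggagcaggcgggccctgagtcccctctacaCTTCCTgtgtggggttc
Cd247: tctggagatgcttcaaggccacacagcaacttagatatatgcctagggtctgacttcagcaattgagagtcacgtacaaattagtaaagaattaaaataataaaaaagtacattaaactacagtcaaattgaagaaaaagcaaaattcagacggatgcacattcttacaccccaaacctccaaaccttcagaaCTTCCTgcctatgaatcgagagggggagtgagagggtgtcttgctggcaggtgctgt
Prkcq: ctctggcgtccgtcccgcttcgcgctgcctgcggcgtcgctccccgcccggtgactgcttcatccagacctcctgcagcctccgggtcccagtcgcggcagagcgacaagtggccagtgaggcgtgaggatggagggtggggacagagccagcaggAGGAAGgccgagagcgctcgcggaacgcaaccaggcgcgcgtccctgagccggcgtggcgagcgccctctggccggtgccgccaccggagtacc
Plcg1: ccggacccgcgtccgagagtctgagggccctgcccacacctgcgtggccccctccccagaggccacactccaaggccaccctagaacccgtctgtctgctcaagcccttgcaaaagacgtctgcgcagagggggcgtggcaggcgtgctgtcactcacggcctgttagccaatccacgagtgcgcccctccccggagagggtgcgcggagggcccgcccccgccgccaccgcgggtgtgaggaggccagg

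The ETS core AGGAAG was found in the windows of Cd3d, Cd3e, Cd247 and Prkcq, with 2 matches in Cd3e, and the GATA letters in that of Cd3g. The Plcg1 window had no match to any of the 5 motifs. Over the 27 members with an entry, some of which have several windows, 23 of 38 windows (60.5%) held AGGAAG, against 29.5% of 32851 windows of all genes. The other 4 motifs were found in 5.26% to 13.2% of the members' windows and in 9.99% to 14% of all windows. The CD3 genes share a locus and windows of the same gene may overlap, so the windows are not independent. A match of letters is not a measured binding site.

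As a mean of the 6 combinations of tumour and day, called settings here, most of the receptor and signalling genes were higher in leukocytes of Nrp1-deleted hosts. Of the 35 measured genes, 29 were higher at an adjusted p under 0.05, none was lower and 6 did not pass, while 11% of all genes measured were higher and 17.9% were lower. The median log2 difference was 0.83 over the 35 genes and −0.026 over all genes. The largest rises were those of Cd28 (2.66-fold), the costimulatory receptor, Prkcq (2.47-fold), protein kinase C theta, and Cd247 (2.32-fold), the zeta chain. By role, 4 of 4 receptor chains, 6 of 6 surface receptors, 3 of 3 tyrosine kinases, 6 of 9 adaptors and scaffolds, 3 of 5 downstream proteins, 5 of 5 negative regulators and 2 of 3 transcription factors were higher. Of 10 members taken as also widely used by other leukocytes (Fyn, Lcp2, Vav1, Plcg1, Bcl10, Malt1, Cblb, Dgkz, Ptpn22 and Nfatc1), 7 were higher with a median difference of 0.36, and of the other 25, 22 were higher with a median of 0.86. In these mixed cells, a change in the number of cells of a type and in the RNA per cell cannot be told apart.

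By tumour, 20 of the 35 genes were higher in B16 (10.3% of all genes) with a median difference of 0.59, and 27 in MC38 (6.97% of all genes) with a median of 0.99. None was lower in either tumour, where 12.3% of all genes were lower in each. In both tumours 18 members passed, 2 (Dgkz and Grap2) passed in B16 without passing in MC38, 9 passed in MC38 without passing in B16, and 6 passed in neither. Among those that passed, 17 rose at least 2-fold in MC38, and in B16 only Cd247 did. Leaving out the 6 B16 day 18 arrays left 11 members called in B16. Calls over all genes in B16 fell too, from 3868 to 2285. In every alternative run 28 of the 29 calls over all settings and 25 of the 27 in MC38 held, against 11 of the 20 in B16.

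**Figure D1:**
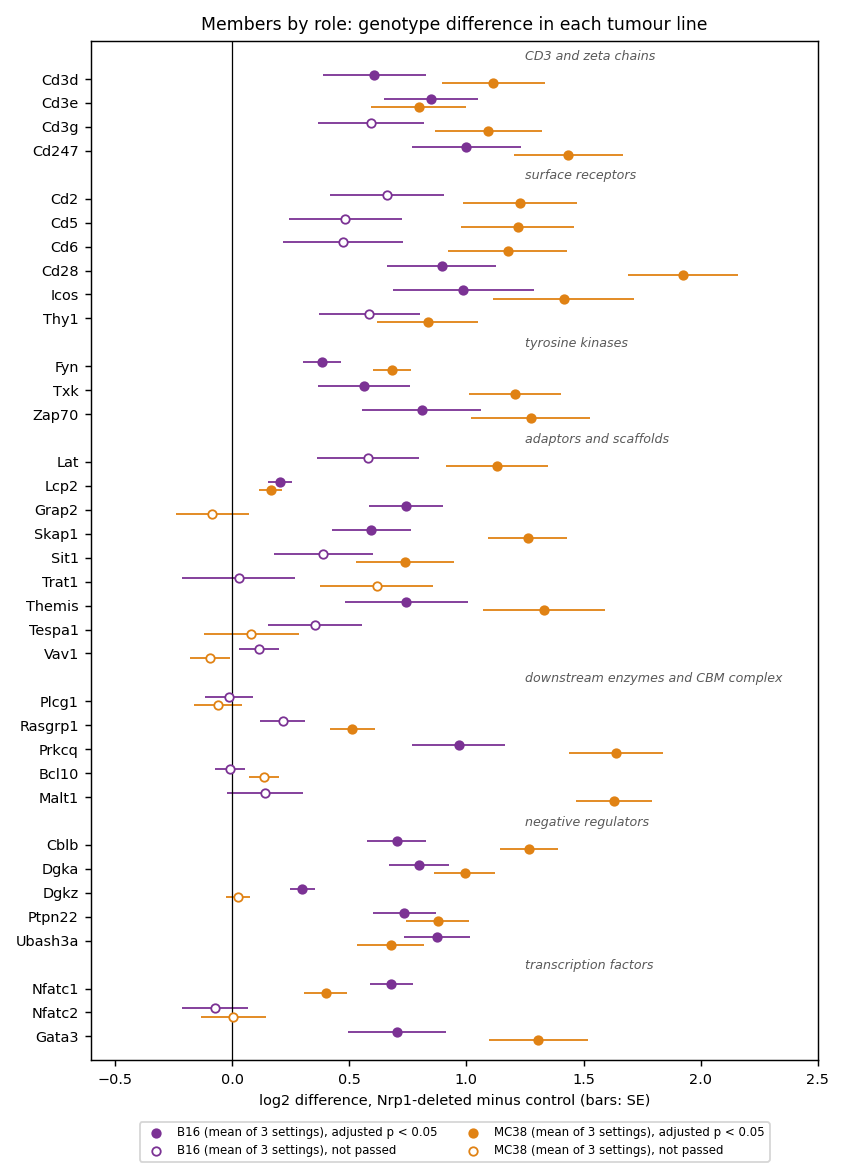
Log2 difference between Nrp1-deleted and control hosts (x axis; point, estimate; bar, SE) for each of the 35 measured genes, ordered by role, as the mean of 3 days in B16 (purple) and in MC38 (orange); filled points have an adjusted p under 0.05. In MC38 Cd28, Prkcq and Malt1 lie farthest right at 1.92, 1.64 and 1.63, while Malt1 in B16 lies at 0.14.

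The 4 chains that carry the receptor's signal were all higher in Nrp1-deleted hosts. Cd3e encodes CD3 epsilon, shared by both CD3 pairs of the complex. In B16 tumours of control hosts Cd3e measured 8.54 and 8.33 (log2) early, 9.10 and 8.46 at day 12 and 8.67, 8.79 and 8.34 at day 18, against 9.34 and 9.68, 9.78 and 9.42, and 9.43, 9.25 and 9.07 in Nrp1-deleted hosts. MC38 control values of Cd3e were 7.55 and 7.79 at day 6, 6.67, 7.79 and 6.08 at day 12 and 7.03 and 7.26 at day 18, against 7.90 and 8.31, 7.34, 7.08 and 8.22, and 8.14 and 8.67. The genotypes separated without overlap in every setting except MC38 day 12, where control replicate 2 lay above 2 of the 3 Nrp1-deleted arrays. The difference over all settings was 0.82 ± 0.14 (1.77-fold, adjusted p = 9.3e-05), with 0.85 ± 0.20 in B16 and 0.80 ± 0.20 in MC38.

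Cd247, the zeta chain, had the largest rise of the 4. For Cd247 the B16 control values were 9.52 and 9.42 early, 8.93 and 9.03 at day 12 and 8.33, 8.19 and 7.95 at day 18, against 9.74 and 10.41, 10.45 and 10.29, and 9.24, 9.38 and 8.86 with Nrp1 deleted. In MC38 Cd247 measured 6.44 and 6.95 at day 6, 6.04, 6.84 and 4.74 at day 12 and 5.55 and 5.65 at day 18 in control hosts, against 7.61 and 8.38, 6.82, 6.44 and 7.73, and 7.38 and 7.58. Again only MC38 day 12 overlapped, through the same control array. Cd247 rose by 1.22 ± 0.16 (2.32-fold, adjusted p = 4.5e-06), by 1.00 ± 0.23 in B16 and by 1.43 ± 0.23 in MC38.

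Cd3d and Cd3g encode CD3 delta and gamma, each the partner of CD3 epsilon in a pair. The B16 control values of Cd3d were 11.85 and 11.76 early, 11.75 and 11.65 at day 12 and 10.89, 10.82 and 10.64 at day 18, against 12.13 and 12.32, 12.55 and 12.34, and 11.52, 11.47 and 11.33. MC38 control values of Cd3d were 9.39 and 9.46 at day 6, 8.70, 9.79 and 7.74 at day 12 and 8.68 and 8.96 at day 18, against 9.88 and 10.69, 9.33, 9.26 and 10.39, and 10.00 and 10.77. Every setting but MC38 day 12 separated. Cd3d differed by 0.86 ± 0.16 over all settings (adjusted p = 0.00014), by 1.12 ± 0.22 in MC38 and by 0.61 ± 0.22 in B16 (adjusted p = 0.049). The B16 call for Cd3d was lost on leaving out any of 20 single arrays and under 7 other alternatives.

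For Cd3g the B16 control values were 11.57 and 11.58 early, 11.60 and 11.42 at day 12 and 10.70, 10.89 and 10.63 at day 18, against 11.89 and 12.11, 12.37 and 12.19, and 11.38, 11.40 and 11.18. Its MC38 control values were 8.70 and 9.0 at day 6, 8.44, 9.43 and 7.33 at day 12 and 8.43 and 8.86 at day 18, against 9.33 and 10.16, 8.99, 9.05 and 10.08, and 9.64 and 10.48. The pattern over arrays was that of Cd3d, with overlap in MC38 day 12 alone. Cd3g rose by 0.84 ± 0.16 over all settings (adjusted p = 0.00026) and by 1.09 ± 0.23 in MC38, while its B16 difference of 0.59 ± 0.23 did not pass (adjusted p = 0.065). Set against the mean difference of Cd3d, Cd3e and Cd3g, 0.84, the other 32 members split almost evenly, with 15 above it and 17 below.

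**Figure D2:**
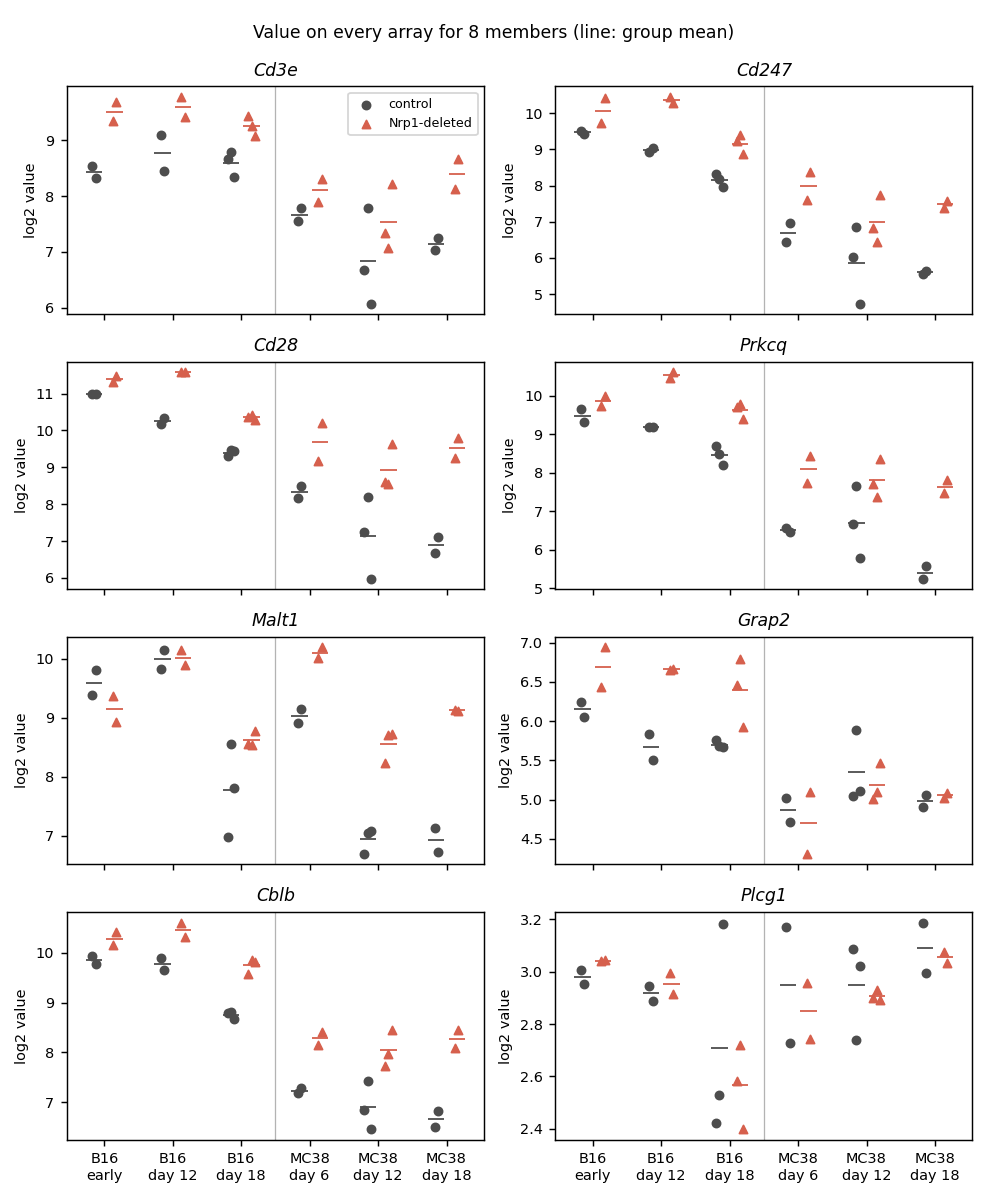
Log2 value on every array (points) and group mean (lines) for 8 members in control (grey circles) and Nrp1-deleted (red triangles) hosts, with B16 settings left and MC38 settings right of the vertical line; levels of different array sets are not comparable, and each panel has its own y axis. Cd28 and Cblb separate the genotypes in all 6 settings, Malt1 in MC38 tumours and Grap2 in B16 tumours, and Plcg1 stays between 2.4 and 3.19.

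Of the 6 surface receptors, all were higher over the 6 settings. Cd28, whose product binds CD80 and CD86 and gives the main costimulatory signal, led the list. B16 control values of Cd28 were 10.99 and 10.99 early, 10.18 and 10.32 at day 12 and 9.30, 9.46 and 9.44 at day 18, against 11.30 and 11.48, 11.58 and 11.58, and 10.37, 10.41 and 10.28 in Nrp1-deleted hosts. Its MC38 values were 8.16 and 8.49 at day 6, 7.24, 8.19 and 5.97 at day 12 and 6.69 and 7.10 at day 18 in control hosts, against 9.16 and 10.20, 8.6, 8.55 and 9.63, and 9.24 and 9.79. Each of the 6 settings separated without overlap, which held for 3 members (Cd28, Cblb and Ubash3a) and for 0.526% of all genes. Cd28 rose by 1.41 ± 0.16 (2.66-fold, adjusted p = 7e-07), with 1.92 ± 0.23 in MC38 and 0.90 ± 0.23 in B16, and by 2.62 ± 0.43 (6.17-fold) in MC38 at day 18.

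Icos encodes the inducible costimulator, a receptor of activated T cells. B16 control values of Icos were 11.18 and 11.02 early, 9.73 and 10.25 at day 12 and 9.19, 8.86 and 9.60 at day 18, against 11.59 and 11.92, 11.56 and 11.30, and 10.06, 10.05 and 10.13. In MC38 tumours Icos measured 9.50 and 9.67 at day 6, 8.38, 9.16 and 6.38 at day 12 and 7.55 and 7.90 at day 18 in control hosts, against 9.81 and 10.95, 8.93, 8.78 and 10.31, and 9.52 and 10.10. Only MC38 day 12 overlapped, where control replicate 3 was also the lowest array of that day. The difference was 1.2 ± 0.21 over all settings, 0.99 ± 0.30 in B16 and 1.41 ± 0.30 in MC38. The other receptors are Cd2, an adhesion and costimulatory receptor, Cd5 and Cd6, related scavenger-type receptors that dampen receptor signals, and Thy1, a glycolipid-anchored T cell surface protein. They rose by 0.71 to 0.94 over all settings and by 0.84 to 1.23 in MC38, and their B16 differences of 0.47 to 0.66 did not pass (adjusted p 0.053 to 0.22). Thy1 is also made by fibroblasts, whose genes are given with the other markers.

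The 3 tyrosine kinases measured were higher over all settings and in each tumour. Zap70, the kinase recruited to the phosphorylated chains, rose by 1.04 ± 0.18, Txk, a Tec family kinase, by 0.88 ± 0.14, and Fyn, a Src family kinase that phosphorylates the chains and is not limited to T cells, by 0.53 ± 0.06 (adjusted p = 3.3e-07). In MC38 the differences were 1.27, 1.21 and 0.68 for Zap70, Txk and Fyn, and in B16 0.81, 0.56 and 0.38. The B16 call for Zap70 was lost without any of 3 single arrays and for Txk without any of 9, while Fyn kept its call in both tumours under every alternative run.

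Among adaptors and scaffolds, 6 of 9 were higher over the 6 settings. Lat, the membrane scaffold phosphorylated by ZAP-70, rose by 0.86 ± 0.15, Skap1, which links receptor signals to integrins, by 0.93 ± 0.12, Themis, a protein needed for thymocyte selection, by 1.04 ± 0.19, and Sit1, a membrane adaptor that dampens signals, by 0.56 ± 0.15. Lcp2, which encodes SLP-76 and is also used by myeloid cells, rose by only 0.18 ± 0.04. Grap2, which encodes GADS, the bridge between LAT and SLP-76, rose by 0.33 ± 0.11 (adjusted p = 0.027), a call lost under the replicate block, without the B16 day 18 arrays and without any of 6 single arrays. These were replicate 2 of MC38 day 6 control and of MC38 day 6 deleted, replicate 1 of MC38 day 18 control, and replicate 2 of B16 day 12 control, B16 early control and B16 early deleted. Trat1 (0.32 ± 0.17), a stabiliser of surface receptor, and Tespa1 (0.22 ± 0.14), a thymocyte signalling adaptor, did not pass. Trat1 lay above the median of all values on only 19 of 28 arrays, and its mean in MC38 day 12 control hosts was 2.83. Trat1 passed without B16 day 18 deleted replicate 3 (adjusted p = 0.038), and Tespa1 with the mean over its probe sets (adjusted p = 0.017).

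Vav1, a guanine nucleotide exchange factor that most leukocytes express, was near 0 with a difference of 0.01 ± 0.06 (adjusted p = 0.94). Its B16 control values were 7.21 and 7.15 early, 7.53 and 7.66 at day 12 and 7.27, 6.73 and 6.98 at day 18, against 7.16 and 7.28, 7.59 and 7.38, and 7.43, 7.44 and 7.37. For Vav1 the MC38 control values were 7.66 and 8.13 at day 6, 7.95, 7.82 and 7.82 at day 12 and 8.08 and 8.20 at day 18, against 7.95 and 7.62, 7.71, 7.85 and 7.72, and 8.15 and 7.99. The genotypes overlapped in every setting except B16 day 18, where Nrp1-deleted arrays were higher (0.42 ± 0.13, adjusted p = 0.022). That call was lost without any of 4 single arrays and under 3 other alternatives.

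Prkcq, whose product is recruited to the synapse and leads to NF-kappaB, had the second largest rise of the list. B16 control values of Prkcq were 9.65 and 9.31 early, 9.18 and 9.18 at day 12 and 8.69, 8.50 and 8.21 at day 18, against 9.74 and 9.98, 10.46 and 10.61, and 9.70, 9.79 and 9.39. Its MC38 control values were 6.56 and 6.45 at day 6, 6.67, 7.65 and 5.79 at day 12 and 5.25 and 5.57 at day 18, against 7.73 and 8.44, 7.72, 7.36 and 8.36, and 7.47 and 7.80. Only MC38 day 12 overlapped, by control replicate 2. Prkcq differed by 1.30 ± 0.14 (2.47-fold, adjusted p = 2.7e-07), by 0.97 ± 0.20 in B16 and by 1.64 ± 0.20 in MC38, and by 2.23 ± 0.37 (4.68-fold) in MC38 at day 18.

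Malt1, a protease and scaffold that acts with BCL10 upstream of NF-kappaB, rose in MC38 and not in B16 as a whole. In B16 Malt1 measured 9.39 and 9.80 early, 9.83 and 10.16 at day 12 and 6.97, 8.56 and 7.81 at day 18 in control hosts, against 9.37 and 8.93, 10.15 and 9.89, and 8.55, 8.54 and 8.77. In MC38 Malt1 measured 8.91 and 9.15 at day 6, 6.69, 7.05 and 7.08 at day 12 and 7.13 and 6.73 at day 18, against 10.02 and 10.20, 8.23, 8.71 and 8.72, and 9.14 and 9.12. In MC38 every Nrp1-deleted array lay above every control array of its day, also at day 12, and in early B16 both Nrp1-deleted arrays lay below both control arrays. The difference was 1.63 ± 0.16 in MC38 (3.1-fold, adjusted p = 4e-07) and 0.14 ± 0.16 in B16 (adjusted p = 0.63). Within B16 it was 0.84 ± 0.24 at day 18 (adjusted p = 0.016), a call lost without either of 2 single arrays and under 1 other alternative. The partner Bcl10 differed by 0.07 ± 0.05 over all settings and passed only in MC38 at day 18, by 0.45 ± 0.12 (adjusted p = 0.026), a call lost without any of 3 single arrays and under 3 other alternatives.

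Rasgrp1, the diacylglycerol-activated exchange factor for Ras, rose by 0.36 ± 0.07 over all settings and by 0.51 ± 0.10 in MC38, with 0.22 ± 0.10 in B16 (adjusted p = 0.12). Plcg1, the phospholipase that yields diacylglycerol and inositol trisphosphate, has no readable difference here. Its B16 control values were 3.01 and 2.95 early, 2.94 and 2.89 at day 12 and 2.42, 2.53 and 3.18 at day 18, against 3.04 and 3.05, 2.99 and 2.92, and 2.58, 2.72 and 2.4. For Plcg1 the MC38 control values were 3.17 and 2.73 at day 6, 3.09, 2.74 and 3.02 at day 12 and 3.19 and 3.0 at day 18, against 2.96 and 2.74, 2.90, 2.93 and 2.89, and 3.08 and 3.03. All 28 arrays lay below the median of all values, so this probe set gives no readable level of Plcg1.

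All 5 negative regulators were higher over the 6 settings. Cblb, a ubiquitin ligase that sets the need for CD28 costimulation, rose by 0.98 ± 0.09 (1.98-fold, adjusted p = 3.1e-08), the smallest adjusted p of the list, and separated the genotypes in all 6 settings. B16 control values of Cblb were 9.94 and 9.78 early, 9.90 and 9.65 at day 12 and 8.80, 8.82 and 8.66 at day 18, against 10.16 and 10.41, 10.61 and 10.32, and 9.57, 9.85 and 9.81. Its MC38 control values were 7.17 and 7.27, 6.84, 7.42 and 6.45, and 6.51 and 6.82, against 8.15 and 8.41, 7.73, 7.97 and 8.45, and 8.08 and 8.45. Cblb differed by 0.70 ± 0.12 in B16 and by 1.27 ± 0.12 in MC38.

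Dgka and Dgkz, diacylglycerol kinases that remove the second messenger, rose by 0.90 ± 0.09 and 0.16 ± 0.04. Ptpn22, a phosphatase acting on the proximal kinases, rose by 0.81 ± 0.10, and Ubash3a, a phosphatase-like regulator of ZAP-70 signalling, by 0.78 ± 0.10. In B16 all 5 passed, and in MC38 all but Dgkz (0.03 ± 0.05, adjusted p = 0.80).

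Of the transcription factors, Gata3, which specifies T helper 2 and innate lymphoid cells and is also used throughout the T lineage, rose by 1.01 ± 0.15, and Nfatc1, a calcium-regulated NFAT factor, by 0.54 ± 0.06. Nfatc2, another NFAT factor, differed by −0.03 ± 0.10 (adjusted p = 0.86). B16 control values of Nfatc2 were 4.52 and 4.40 early, 4.12 and 4.40 at day 12 and 4.77, 4.26 and 4.27 at day 18, against 4.24 and 4.13, 4.52 and 4.30, and 4.59, 4.11 and 4.31. In MC38 Nfatc2 measured 4.15 and 4.14 at day 6, 4.55, 4.42 and 3.99 at day 12 and 4.39 and 4.26 at day 18, against 3.93 and 4.65, 4.37, 3.98 and 4.49, and 4.42 and 4.03. The genotypes overlapped in every setting but early B16, where Nrp1-deleted arrays were lower. With probe sets that name several genes included, the value of Nfatc2 was 0.20 (adjusted p = 0.0024).

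Day by day, the number of members higher in Nrp1-deleted hosts differed widely. In B16 it was 0 early by limma (0.152% of all genes were higher), with 2 at an unadjusted p under 0.05, 13 at day 12 (7.8%) and 17 at day 18 (7.54%). In MC38 it was 4 at day 6 (0.983%), 14 at day 12 (3.71%) and 21 at day 18 (3.12%), and no member was lower in any of the 6 settings. The share of all genes that were lower was 0.292%, 9.17% and 11.3% in B16 and 1.99%, 4.87% and 2.24% in MC38, in order of day. The median difference was 0.21 in early B16, 0.84 at day 12 and 0.70 at day 18, and 0.86, 0.80 and 1.26 at days 6, 12 and 18 in MC38. The 4 called at MC38 day 6 were Txk (1.37), Prkcq (1.58), Cblb (1.06) and Dgka (0.97). These counts rest on few arrays, and all but that of early B16 moved by over 1.5 times when some single array was left out.

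At B16 day 12 the count was 7 without control replicate 1 or deleted replicate 1 and 5 without control replicate 2 or deleted replicate 2. At B16 day 18 it was 11 without control replicate 3 and 10 without deleted replicate 1 or 2. MC38 day 6 fell to 0 without either control array or deleted replicate 2, and reached 7 without deleted replicate 1 and 12 and 13 without MC38 day 12 control replicates 2 and 3. For MC38 day 12 it was 26 without control replicate 2, 8 without control replicate 1 or deleted replicate 1, and 5 without control replicate 3 or deleted replicate 3. For MC38 day 18 it was 7 and 9 without control replicates 1 and 2 and 11 and 5 without deleted replicates 1 and 2. Control replicate 2 of MC38 day 12 was the highest control array of its group for all 4 receptor chains, and control replicate 3 the lowest.

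**Figure D3:**
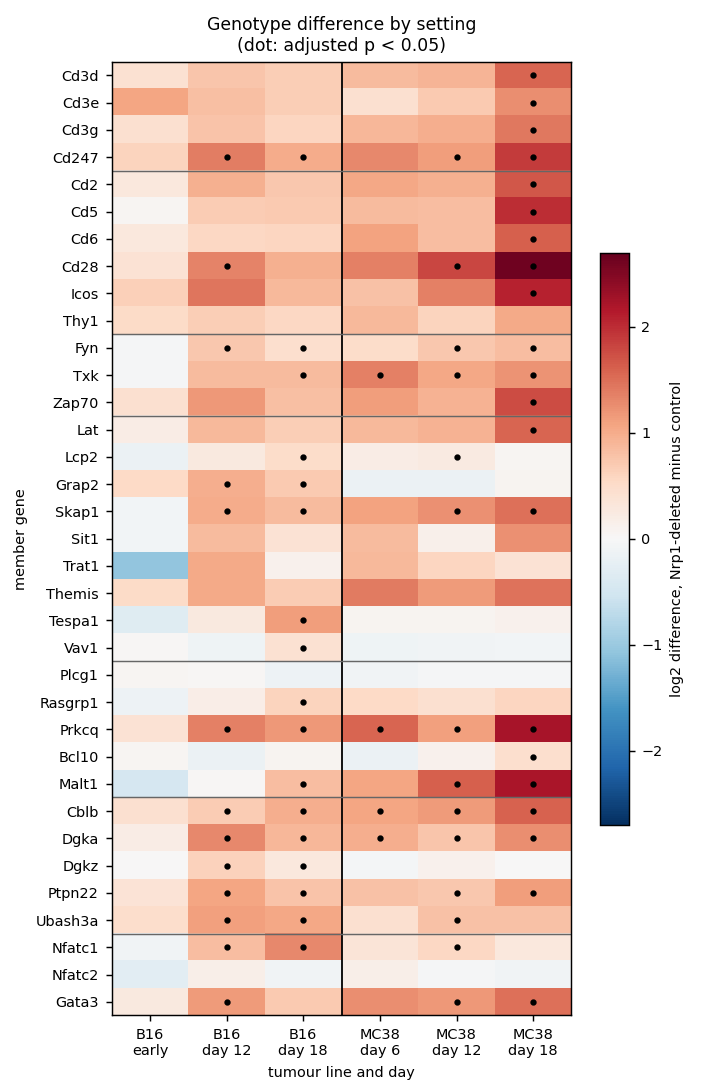
Log2 difference between Nrp1-deleted and control hosts (colour) for each measured gene (rows, by role, separated by lines) in each setting of tumour and day (columns); dots mark an adjusted p under 0.05. The early B16 column holds no dot and has a median of 0.21, while the MC38 day 18 column has 21 dots and a median of 1.26, with Cd28 at 2.62.

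Counted by arrays that do not overlap, 30 members had all Nrp1-deleted arrays above all control arrays at B16 day 12 (31.6% of all genes), with 1 below (24.1%), and 30 at B16 day 18 (13.6%). The counts were 28 at MC38 day 6 (16.2%), 10 at MC38 day 12 (8.38%) and 28 at MC38 day 18 (19.7%). No member had all Nrp1-deleted arrays below in these last 4 settings, where 15.8%, 25.9%, 17.1% and 32.6% of all genes did. In early B16 18 members were above (21.2%) and 6 below (22.9%). In at least 5 of the 6 settings 19 members separated this way, against 2.78% of all genes, and 19 had a higher mean in all 6 settings, against 5.16%. No member had a lower mean in all 6, against 7.94% of all genes.

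The genotype difference itself was compared between tumours. This sets effects from different array sets beside each other, so that tumour and array set cannot be fully told apart. Of the 35 members, 26 had a smaller difference in B16 than in MC38, with a median gap of −0.43. Only 5 gaps passed, 3 lower in B16 (7.22% of all genes) and 2 higher (6.75%), shares of the list close to those of all genes. Malt1 had the largest gap, −1.49 ± 0.23 (adjusted p = 9e-05), then Cd28, −1.03 ± 0.33 (adjusted p = 0.038), and Cblb, −0.56 ± 0.18 (adjusted p = 0.033). Grap2 (0.83 ± 0.22) and Dgkz (0.27 ± 0.07), both with an adjusted p of 0.013, had a larger difference in B16.

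The gaps for Malt1, Grap2 and Dgkz held under every alternative run, that for Cd28 was lost without any of 15 single arrays (up to an adjusted p of 0.13 over all alternatives), and that for Cblb without any of 8. The count of 5 was 10 without MC38 day 12 control replicate 2. It was 3 without replicate 1 of MC38 day 6 control, MC38 day 18 control, B16 day 12 control, B16 early control or B16 early deleted, or without replicate 2 of MC38 day 6 deleted, MC38 day 18 deleted or B16 day 12 deleted. Grap2 separated the genotypes on all 3 B16 days, with control arrays at 6.25 and 6.06 early, 5.83 and 5.50 at day 12 and 5.75, 5.68 and 5.66 at day 18 against 6.44 and 6.94, 6.66 and 6.66, and 6.46, 6.80 and 5.93. On no MC38 day did Grap2 separate, with control arrays at 5.02 and 4.71, 5.05, 5.88 and 5.11, and 4.91 and 5.06, against 4.3 and 5.1, 5.0, 5.09 and 5.47, and 5.02 and 5.09. Its difference was 0.74 ± 0.16 in B16 (adjusted p = 0.00098) and −0.08 ± 0.16 in MC38 (adjusted p = 0.78).

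Over time inside one array set, 27 of 35 estimates in control hosts were below 0 in each tumour, later minus earlier day. Most of these did not pass, and the share of all genes below 0 is not given here. From day 6 to day 18 in MC38 control hosts 8 members fell, against 4.54% of all genes, none rose (4.4% of all genes did), and the median change was −0.56. The falls were Malt1 (−2.11 ± 0.30), Icos (−1.86 ± 0.56), Cd5 (−1.63), Cd28 (−1.43), Gata3 (−1.41), Dgka (−0.86), Bcl10 (−0.70 ± 0.12) and Fyn (−0.55). Malt1 and Bcl10 kept their calls under every alternative. The count was 2 without either day 6 control array or day 18 control replicate 1, and 3 without day 18 control replicate 2. In Nrp1-deleted hosts no member passed over the same days in the limma fit (1.94% of all genes did), with 4 at an unadjusted p under 0.05 and a median of −0.16. It reached 2 without MC38 day 6 deleted replicate 1 or B16 day 18 control replicate 2 and 1 without B16 day 18 control replicate 1, B16 day 18 deleted replicate 1 or 3, or either early B16 deleted array. The difference between hosts in this change did not pass for any member (0.0819% of all genes did), with 3 at an unadjusted p under 0.05, a median of 0.37 and 1 call, in the fit without MC38 day 6 deleted replicate 2.

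From early to day 12 in B16, control hosts showed a fall of Fyn (−0.59 ± 0.15) and a rise of Lcp2 (0.28 ± 0.09), against 6.92% and 9.14% of all genes. Leaving out day 12 control replicate 1 or either early control array ended both calls, leaving out day 12 control replicate 2 ended 1, and without MC38 day 12 control replicate 3 there were 5. In Nrp1-deleted hosts 8 members rose (9.14% of all genes) and Bcl10 fell by 0.53 ± 0.12 (7.09%). The rises were Tespa1 (1.11), Ubash3a (1.00), Dgka (0.93), Malt1 (0.87), Lcp2 (0.69), Rasgrp1 (0.65), Nfatc1 (0.57) and Dgkz (0.42). Lcp2 and Bcl10 held under every alternative, and the count of 9 was 3 without day 12 deleted replicate 2 or early deleted replicate 1 and 5 without day 12 deleted replicate 1.

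The genotype difference was higher at day 12 than early in B16 for 4 members (1.88% of all genes) and lower for none (4.41%). The 4 were Trat1 (2.09 ± 0.63), Nfatc1 (0.92 ± 0.24), Fyn (0.75 ± 0.22) and Dgkz (0.60 ± 0.14). For Trat1 it went from −1.06 to 1.03, neither of which passed by itself, and for the other 3 it was near 0 early (−0.09 to 0.01). Of the 35 estimates, 31 were above 0. No call remained without day 12 deleted replicate 1. There was 1 without day 12 control replicate 2, either early control array or early deleted replicate 1, and there were 2 without day 12 control replicate 1 or day 12 deleted replicate 2. The comparisons of days share their control arrays with the genotype comparisons of those days.

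**Figure D4:**
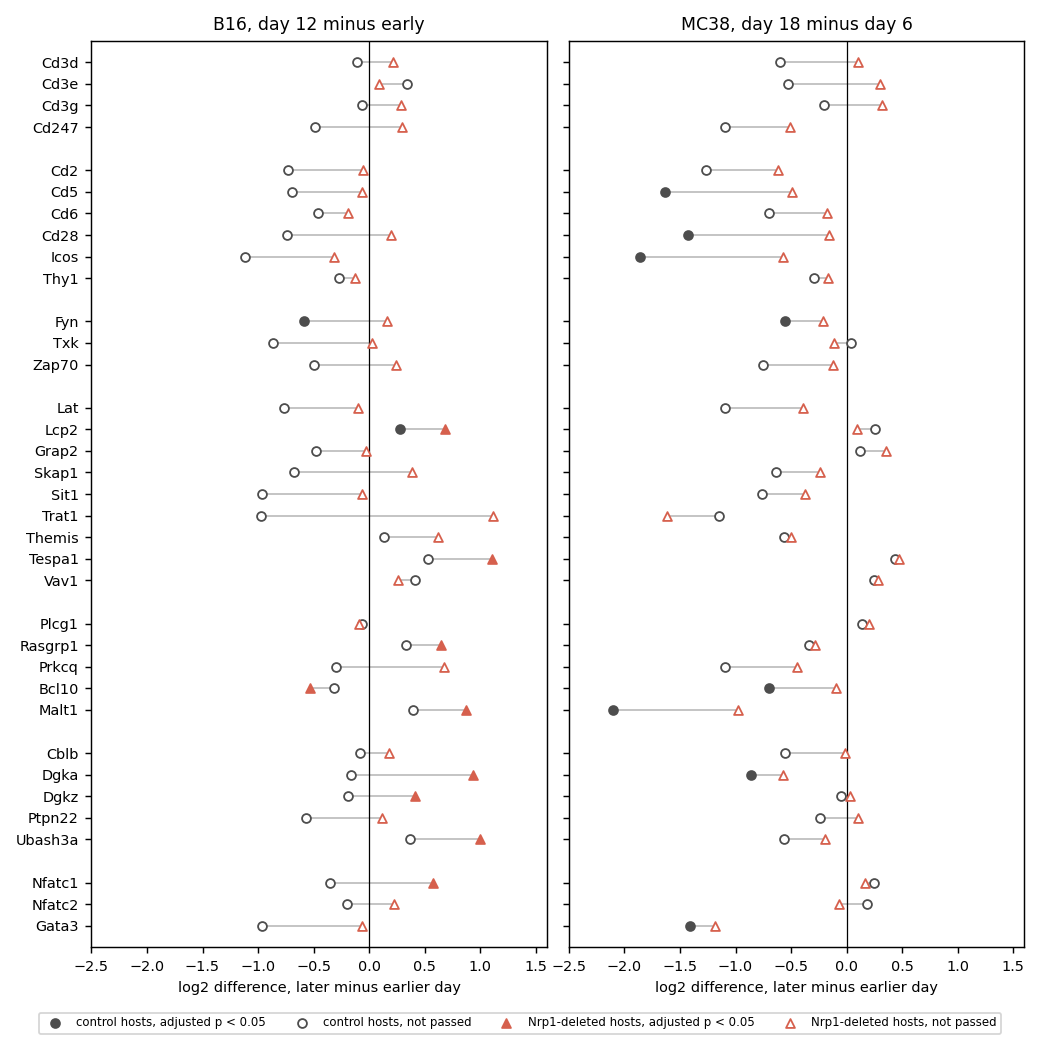
Log2 change between days (x axis) in control (grey circles) and Nrp1-deleted (red triangles) hosts for each measured gene, in B16 from early to day 12 (left) and in MC38 from day 6 to day 18 (right); filled symbols have an adjusted p under 0.05 and grey lines join the hosts of a gene. In MC38 the control circles of Malt1 and Icos lie farthest left at −2.11 and −1.86, and no Nrp1-deleted triangle is filled.

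Further probe sets, 31 in all, were present for 20 members, and 30 of these had the same sign as the probe set used over the 6 settings and 19 passed. The 3 probe sets of Malt1 gave 1.63, 1.51 and 0.60 in MC38, and 0.14, 0.26 and −0.01 in B16. The 2 probe sets of Cd28 gave 1.92 and 1.63 in MC38, and those of Grap2 gave 0.74 and 0.71 in B16. Probe sets disagreed for Themis, whose other 2 gave 0.30 and 0.18 in MC38, without passing, and 1.22 and 1.11 in B16, and for Dgkz, whose other probe set gave 0.07 over all settings (adjusted p = 0.47 over probe sets).

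A separate list of 84 other genes of the pathway was taken for comparison, and 60 were measured. Over the 6 settings 42 were higher (11% of all genes) and 4 lower (17.9%), with a median difference of 0.24. In B16 36 were higher (10.3% of all genes) and 4 lower (12.3%). In MC38 28 were higher (6.97% of all genes) and 1, Slamf6, was lower (12.3%). The largest rises were Cd8b1 (1.12 ± 0.19) and Cd8a (1.04 ± 0.18), the chains of the CD8 coreceptor, Sh2d1a (1.09 ± 0.15), which encodes the SLAM adaptor SAP, and Sh2d2a (0.99 ± 0.16), a T cell adaptor that binds the Lck kinase. The largest falls that passed were Rel (−0.39 ± 0.09), an NF-kappaB subunit, Jun (−0.38 ± 0.09) and Fos (−0.21 ± 0.06), subunits of AP-1, and Grb2 (−0.15 ± 0.04), a Ras pathway adaptor used in all cells. Of the antigen receptor chain genes listed, Tcra and Ptcra were measured, and both lay below the median of all values on every array.

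Markers of other cells moved with the same comparison, and their part in the members' differences was not tested. The ranges of summed levels below pool the days of a tumour, and so different array sets. Differences between days and sets therefore enter them. Of 7 T cell genes outside the list, all were higher over the 6 settings with a median of 1.07, and the log2 of their summed levels ran from 11.4 to 12.2 in B16 control arrays and 12.4 to 13.3 in Nrp1-deleted arrays, and from 8.22 to 10.5 and 9.73 to 11.1 in MC38. Of 9 NK cell genes all were higher (median 0.88), with 9 of 9 in MC38 and 4 of 9 in B16. The 4 in B16 were Klrc1, Klrd1, Gzma and Klra7. Ncr1, Klrb1c, Klra8, Eomes and Il2rb did not pass there (adjusted p 0.057 to 0.54). The summed levels of the 9 genes ran from 12.5 to 14.4 and 13.3 to 14.5 in B16, and from 10.7 to 12.4 and 12.1 to 13.4 in MC38. NK cells are known to express several members, Cd247, Zap70, Fyn, Txk and Prkcq among them. All 11 macrophage genes were lower over the 6 settings (median −1.16). In the mean of the B16 days 11 of 11 were lower, with sums of 11.5 to 13.5 in control and 9.69 to 11.7 in Nrp1-deleted arrays. In early B16 only Mrc1 of them passed (−2.77 ± 0.59). In MC38 none passed, with sums of 14.8 to 15.6 and 14.5 to 15.1.

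All 11 melanocytic genes, taken as marks of B16 tumour cells, were lower in the mean of the B16 days (median −1.66), with sums of 11.4 to 14.1 and 9.06 to 12. In early B16 none of them passed. None passed in MC38, where sums were 8.33 to 8.76 and 8.15 to 8.63. Of 9 basophil and mast cell genes 3 were higher over the 6 settings and 6 in B16, and of 5 genes of group 2 innate lymphoid cells, which use Gata3, 2 were higher over the 6 settings, 3 in MC38 and none in B16. Of 5 monocyte genes 3 were lower in B16, Chil3 (−2.13), Vcan (−2.13) and F13a1 (−1.92), and 2 were higher in MC38, Chil3 (1.2) and Plac8 (0.78). Their sums ran from 12.6 to 13.9 in control and 12.6 to 13.1 in Nrp1-deleted B16 arrays, and from 12 to 13.4 and 12.4 to 14 in MC38. Of 6 neutrophil genes 4 were lower in B16, and in MC38 1 was higher and 1 lower.

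Of 11 fibroblast genes, which include Thy1, 4 fell in MC38, Col3a1 (−2.18), Postn (−2.13), Dcn (−2.07) and Pcolce (−1.46), and Thy1 alone rose. In B16 3 of them were lower. Their sums ran from 10.8 to 11.5 and 9.64 to 10.8 in MC38, and from 10.6 to 11 and 11 to 11.5 in B16. These sums include Thy1, whose own mean in the early Nrp1-deleted B16 arrays was 11.4. The B16 sums are therefore no measure of the other fibroblast genes. The part of fibroblasts in the value of Thy1 was not tested. Of 7 dendritic cell genes 6 were lower over the 6 settings, 6 in B16 and 1 in MC38, and of 7 proliferation genes 3 were lower over the 6 settings, 6 in MC38 and none in B16. None of 9 B cell genes passed over the 6 settings or in the mean of either tumour, and the B cell factor Pax5 lay below the median on every array.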

How the data were processed

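RNA of CD45+ tumour leukocytes was labelled by a repeated-cycle method and hybridised to Affymetrix arrays, 28 in 12 groups. The deposited values are log2; the submitters' processing notes name RMA and Partek 6.6 as what the authors used, and scanner files were not used here. Of 45141 probe sets, 28898 name 1 gene, 551 several, 15588 are unnamed here and 104 are controls. Each of 17097 genes is represented by the probe set of highest mean over all arrays among those naming it alone. A limma model (limma 3.58.1, R 4.3.3) with a mean per group was fitted to all genes and arrays, with empirical Bayes moderation, an intensity trend and Benjamini-Hochberg adjustment over all genes at 0.05. It was tested on simulated data with independent noise for each gene and array. That test cannot show how the model behaves with effects shared by arrays or genes. All adjusted p-values are from limma and 2-sided, for 16 contrasts. Differences are log2, Nrp1-deleted minus control, with SE after ±.

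Array values are given for the receptor chains, the 3 largest rises, the 3 lowest differences, and the members changing most between tumours or days. Those of Cblb, which is outside these rules and has the smallest adjusted p of the list, are given too. So are those of the members flagged for a difference between days. Other pathway genes named are the 4 largest rises and falls that passed. The members and lists were chosen with earlier results of these data known. Replicate numbers showed no clear pairing of the samples (14 pairs, r of −0.276 to 0.196, 2 above 0.1). With 2 arrays a group both pairs of a setting give the same r, so the 14 are not separate values. At B16 day 18 the values were 0.095, 0.103 and 0.196. The alternatives were a filter on dim genes, other uses of probe sets, cyclic loess, 75th percentile centring, weights per array, variance models without a trend or robust to outliers, fitting the compared groups alone, a replicate block, leaving out the B16 day 18 arrays and leaving out each array.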

Additional observations from a re-analysis of the deposited data

Results flagged for a closer look

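Of the differences between effects, 9 passed their test, with limma's adjusted p under 0.05 over all genes. Between tumours the genotype difference in B16 minus that in MC38 was −1.49 for Malt1, −1.03 for Cd28 and −0.56 for Cblb, all smaller in B16, and 0.83 for Grap2 and 0.27 for Dgkz, larger in B16. These set effects from different array sets side by side. Between days the genotype difference in B16 at day 12 minus that at the early day was 2.09 for Trat1, 0.92 for Nfatc1, 0.75 for Fyn and 0.60 for Dgkz.

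The values behind the day differences were as follows. Trat1 measured 5.78 and 5.99 in early control arrays and 4.23 and 5.42 in early Nrp1-deleted arrays, and 4.72 and 5.10 against 6.17 and 5.70 at day 12, so the order of the genotypes turned. Its probe set was above the median of all values on 19 of 28 arrays. For Dgkz the early arrays were 11.16 and 11.07 against 11.11 and 11.14, and those of day 12 were 10.91 and 10.95 against 11.71 and 11.37. Nfatc1 went from 8.64 and 8.63 against 8.47 and 8.63 to 8.32 and 8.26 against 9.19 and 9.06. For Fyn early arrays were 10.59 and 10.60 against 10.45 and 10.69, and those of day 12 were 9.97 and 10.04 against 10.80 and 10.66. With 2 arrays a side, the call for Trat1 was lost without any of 21 single arrays, that for Fyn without any of 7, that for Nfatc1 without any of 5 and that for Dgkz without 1.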

How the results depend on the processing

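Of the 29 members called over the 6 settings, 28 were called under all 11 other alternatives and on leaving out each of the 28 arrays, as were 25 of 27 in MC38 and 11 of 20 in B16. Counts by day rest on 2 or 3 arrays a group and moved more. The number of calls on leaving out each array ran from 28 to 30 over the 6 settings, 14 to 24 in B16, 25 to 28 in MC38, 5 to 18 for B16 day 12 and 10 to 19 for B16 day 18. It ran from 0 to 13 for MC38 day 6, 5 to 26 for MC38 day 12 and 5 to 24 for MC38 day 18, and was 0 throughout for early B16. For B16 minus MC38 it ran from 3 to 10, for the days of MC38 from 2 to 12 in control and 0 to 2 in Nrp1-deleted hosts, and for those of B16 from 0 to 5 and 3 to 10. For the change of the genotype difference with day it ran from 0 to 5 in B16 and 0 to 1 in MC38. Calls over all 17097 genes moved on leaving out an array too. They ran from 1802 to 3079 at B16 day 12 (2900 in the main fit) and from 59 to 635 at MC38 day 6 (508). At MC38 day 12 they ran from 733 to 1631 (1468), and at MC38 day 18 from 262 to 1061 (917).

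Fitting the compared groups alone gave 1 call for early B16, 28 for B16 day 12, 26 for B16 day 18, 4 for MC38 day 12, 19 and 1 for the MC38 days in control and Nrp1-deleted hosts, 23 for the B16 days in control hosts and 19 for the change with day in B16. With the replicate block, which the numbers do not justify as pairs, there were 8 for B16 day 12, 1, 6 and 11 for MC38 days 6, 12 and 18, 3 for B16 minus MC38, 18 and 5 for the MC38 days and 19 for the B16 days in control hosts. Robust moderation gave 2 for MC38 day 6, 12 for MC38 day 18, 3 for B16 minus MC38 and 4 for the MC38 days in control hosts. Without the intensity trend there were 3 for B16 minus MC38, 1 for the B16 days in control hosts and 2 for the change with day in B16. Array weights gave 15 for the MC38 and 12 for the B16 days in control hosts. The mean over probe sets gave 2 for MC38 day 6, 1 for the MC38 days in Nrp1-deleted hosts and 2 for the change with day in B16, for which cyclic loess also gave 2. Centring on the 75th percentile gave 1 for the B16 days in control hosts, and the filter on dim genes 1 for the MC38 days in Nrp1-deleted hosts. Without the B16 day 18 arrays there were 11 in B16 and 2 for the MC38 days in Nrp1-deleted hosts. All genes called in B16 then numbered 2285, against 3868. With probe sets naming several genes included, Nfatc2 turned to 0.20 (adjusted p = 0.0024) over the 6 settings and to 0.39 (adjusted p = 0.017) at MC38 day 12, where another probe set stood for it. Calls over all genes moved in such fits too. Array weights gave 4103 for the B16 days in control hosts, against 2745 in the main fit. Fitting the compared groups alone gave 2692 for the MC38 days in control hosts, against 1528, and 723 for MC38 day 12, against 1468. That fit also gave 15 for early B16, against 76, and 2141 for B16 day 18, against 3217. In both of these the count of members rose while that of all genes fell. Apart from the smaller number of arrays in some fits, the cause of these moves was not tested. Centring on the 75th percentile moved the median of all genes to −0.121 at MC38 day 12 and −0.106 at MC38 day 18. Plcg1, Tcra, Ptcra and Foxp3 lay below the median of all values on every array, which limits what their probe sets show.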
